A study of Mus musculus with 8 samples.

Results

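Nephron progenitors and stroma lie outside the ureteric bud in a developing kidney, and 32 genes that mark them were followed here in sorted bud samples: 10 genes of nephron progenitors and 22 of stroma. They were chosen by name, and every non-control probe annotated to a RefSeq transcript of one of them was taken. This gave 35 probes for the 32 genes, out of 55681 probes for 20887 named genes on the array. Of these, 33 probes of 30 genes were bright enough to be tested, out of 31667 tested in all. The probes of Tbx18 and Dpt were not.

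The samples were GFP-positive ureteric bud cells collected by flow sorting from kidneys of C57BL/6 mice on postnatal day 0. The 4 wild-type samples are called WT and carry the genotype "control" in the labels. The 4 samples called KO are DOT1-null, from a conditional Dot1 deletion in Hoxb7-positive cells. Per the series' design text the samples within each group are biological replicates. The sources used here do not say which alleles carry GFP or the recombinase, or how many animals and litters made a sample, and a p-value below measures the spread among these 8 samples only.

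Each sample was labelled with Cy5 and hybridised on its own 2-colour Agilent array together with Cy3-labelled RNA of WT 3, so 1 reference RNA lay on all 8 arrays. The array of WT 3 set that RNA against itself. Values below are log2 ratios of Cy5 to Cy3 after normalisation. On the array of WT 3, where both dyes carried the same RNA, the 33 member probes read from -0.41 (Gdnf) to 0.78 (Uncx), with 30 within 0.5 of 0, so for single probes 0 is not exactly the level of WT 3. Arrays are therefore compared with each other, and a step of 1 is a doubling. A difference between groups is KO minus WT.

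During kidney development the nephron progenitors form a cap of mesenchyme around each bud tip and renew themselves there under Six2. The youngest of them express Cited1. Progenitors also secrete GDNF, which drives branching of the bud. Stromal cells lie around both. Foxd1 marks the outer, cortical stroma, and other stromal cells become the smooth muscle of the ureter and vessels, pericytes, mesangial cells and fibroblasts. Neither lineage belongs to the bud epithelium, so these genes were followed as a measure of other cells in the sorted samples. Low expression in the bud itself cannot be told apart from such cells. In bulk RNA, fewer cells of a type and less RNA per cell cannot be told apart.

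On all 8 arrays, 19 of 19 probes of 18 ureteric bud and collecting duct markers, among them Ret, Wnt11, Cdh1 and Gata3, were well above background in Cy5. Markers of endothelium (7 of 7 probes), macrophages (8 of 8), podocytes (5 of 5) and proximal tubule (6 of 6) were too, on every array. The share of spots well above background in Cy5 was 52.4% to 56.2% on the WT arrays and 59.1% to 95.2% on the KO arrays. The highest share was on KO 3, where 86.2% of spots were also above background in Cy3, against 45.9% to 48.6% on the others, although the Cy3 RNA was the same. KO 3 also had 7665 spots marked as outliers, against 175 to 216 elsewhere. Dot1l (NM_199322) lay between -0.11 and 0.07 on WT arrays and between -0.04 and 0.35 on KO arrays. Whether its probe lies in the deleted part is not given, so it does not check the labels. The WT and KO arrays occupied different rows of a single slide, and genotype and row cannot be told apart.

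For most nephron progenitor probes the range among the 4 WT arrays was wider than the difference between the group means. This also held for 70.7% of all tested probes. The median log2 ratio of the 11 tested progenitor probes was 0.86 on WT 1, 1.28 on WT 2, 0.08 on WT 3 and 0.23 on WT 4. The arrays KO 1 to KO 4 gave -0.46, 0.80, 0.04 and 0.36. WT 1, WT 2 and KO 2 were thus the arrays with high progenitor signal, KO 1 was the lowest, and the groups overlapped. Over the same arrays the median of all 31667 tested probes lay between -0.02 and 0.05, where normalisation within arrays sets it near 0. That of the ureteric bud probes lay between -0.12 and 0.26, but some single bud probes moved more. Among WT arrays Krt19 ranged from 0.62 to 2.58 and Aqp2 from -0.49 to 1.10. At an unadjusted limma p under 0.05, 7 of 19 bud probes were lower and 1 higher in KO, beside 23.8% of all probes. With all arrays, 0 of the 19 passed after adjustment over all probes. Without KO 2, 1 higher and 5 lower of the 19 passed at an adjusted limma p under 0.05, beside 21.1% of all probes. With all arrays the groups did not overlap for 4 lower and 1 higher, beside 11.8% of all probes. The lower ones included Hoxb7 (-0.71 ± 0.08, SE, limma adjusted p = 0.0638), Calb1 (-0.54 ± 0.15, SE) and Pax2 (-0.40 ± 0.09, SE, with no value on KO 3). The higher one was Krt18 (0.79 ± 0.19, SE). Proximal tubule probes had medians from -0.72 on KO 1 to 1.40 on WT 1, podocyte probes from -0.13 on WT 3 to 0.43 on WT 2, endothelial probes from -0.19 on WT 2 to 1.09 on WT 4, and macrophage probes from -0.14 on WT 2 to 0.24 on WT 1. The 2 tested red cell probes moved most, with medians from -3.21 on WT 2 to 0.58 on WT 3. Summed over all 3 red cell probes on the array, Cy5 intensity ranged from 6713 to 122945 on WT arrays and from 46269 to 84704 on KO arrays. Both the red cell median and this sum were lowest on WT 2, the array with the highest progenitor median. On WT 1 and KO 2, the arrays with the next highest progenitor medians, the red cell median was 0.30 and -0.40. Whether these other cells had a part in the progenitor values was not tested. Summed Cy5 intensity of the progenitor probes ranged from 27000 to 54903 on WT arrays and from 24520 to 46999 on KO arrays. Most of this sum came from Eya1 and Cited1, with 18648 and 17747 of 54903 on WT 1.

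No progenitor or stroma probe passed the test between KO and WT. Called means a Benjamini-Hochberg adjusted limma p under 0.05 over all 31667 probes, and 0 of the 33 member probes were called, beside 2 of all probes (0.00632%). At an unadjusted p under 0.05 there were 1 higher and 1 lower among 11 progenitor probes and 2 higher and 1 lower among 22 stroma probes, where 23.8% of all probes reached it. The median difference was -0.49 over the progenitor probes, with 10 of 11 below 0, and -0.22 over the stroma probes, with 18 of 22 below 0. Over all tested probes the median was -0.02, and 54.4% lay below 0. For 31 of 33 member probes (93.9%) the range among the 4 WT arrays was wider than the KO minus WT difference, as it was for 70.7% of all probes.

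**Figure D1:**
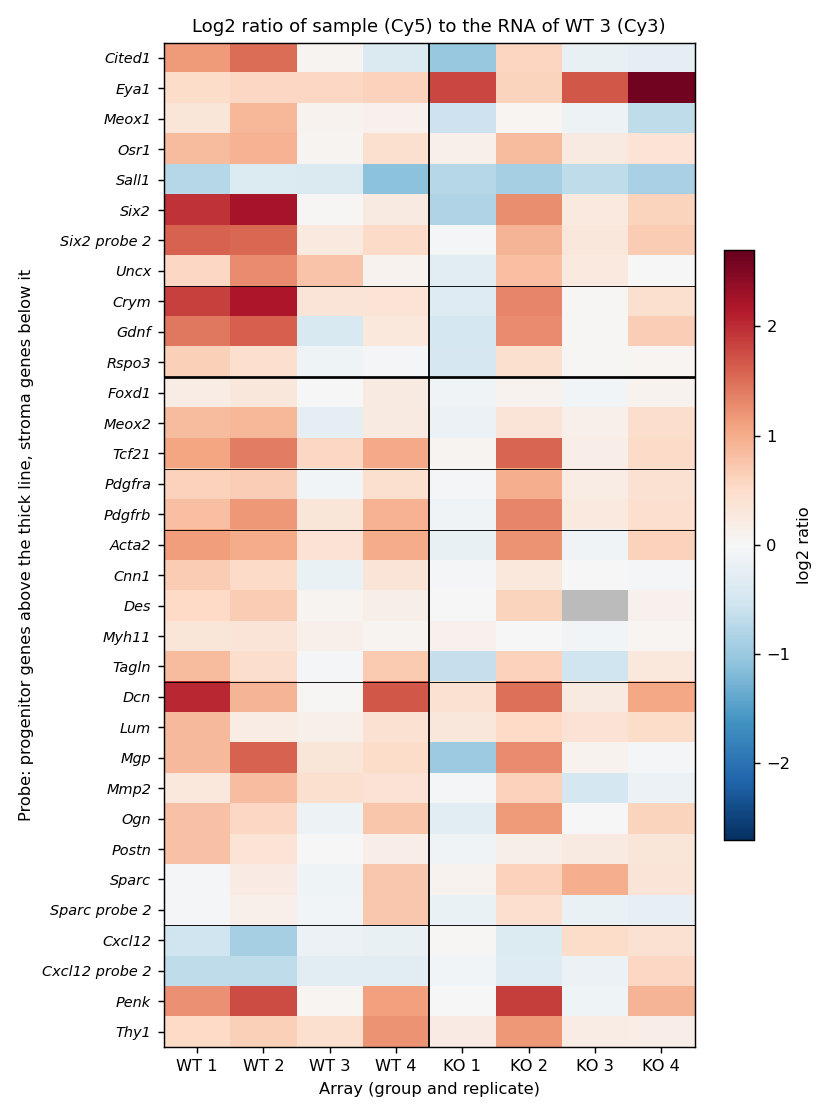
Log2 ratio of each sample to the RNA of WT 3 for the 33 tested probes, 1 row per probe and 1 column per array, with red above 0, blue below 0 and grey for a value left out. The columns of WT 1, WT 2 and KO 2 are red for most progenitor and many stroma probes, whereas Eya1, Sall1 and Cxcl12 have other patterns.

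Six2 encodes the homeodomain factor that keeps nephron progenitors undifferentiated, and its log2 ratios varied most among the wild-type arrays of all members (SD 1.14). Its promoter is given here, with that of Acta2 below, as examples of a regulator of the progenitors and a contractile gene of the stroma. The 250 bases upstream of the RefSeq start (GRCm38.p6, chr17:85688255-85688504, minus strand) are printed in the direction of transcription, with the CCAAT box in capitals.
Six2: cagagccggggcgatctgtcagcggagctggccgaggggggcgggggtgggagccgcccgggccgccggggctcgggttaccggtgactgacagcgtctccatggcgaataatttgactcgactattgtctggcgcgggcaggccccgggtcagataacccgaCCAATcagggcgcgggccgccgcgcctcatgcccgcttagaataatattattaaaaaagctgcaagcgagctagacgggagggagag
The letters CCAAT, searched on both strands, have 1 match, beginning 87 bases upstream of the start, and are found in 33.8% of all 32851 promoter windows of that length. RefSeq windows were matched for 18 of the 32 genes.

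The brighter Six2 probe (NM_011380) had raw Cy5 intensities of 8368, 7713, 1639 and 1614 on WT 1 to WT 4 and of 1044, 5506, 3112 and 2281.5 on KO 1 to KO 4. Over the same arrays its Cy3 intensity, which reads 1 RNA, stayed between 314 and 447. As log2 ratios this was 1.96, 2.23, 0.03 and 0.23 on WT 1 to WT 4 and -0.81, 1.25, 0.26 and 0.61 on KO 1 to KO 4. WT 1, WT 2 and KO 2 stood well above the other 5 arrays, and the groups overlapped. The difference was -0.78 ± 0.57 (SE; limma adjusted p = 0.426), and leaving out 1 array at a time gave values from -1.14 without WT 3 to -0.41 without KO 1 or WT 2. The other Six2 probe had the same 3 arrays at the top, with 1.58 on WT 1, 1.56 on WT 2 and 0.91 on KO 2, and the other arrays between -0.03 and 0.68. Its difference was -0.51 ± 0.32 (SE; limma adjusted p = 0.359).

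Cited1, a transcriptional coactivator found in the youngest progenitors, had log2 ratios of 1.15, 1.52, 0.08 and -0.38 on WT 1 to WT 4 and -1.03, 0.57, -0.20 and -0.26 on KO 1 to KO 4. Again WT 1, WT 2 and KO 2 were the highest arrays, and KO 1 the lowest. The groups overlapped, with a difference of -0.82 ± 0.44 (SE; limma adjusted p = 0.283). Leaving out 1 array at a time gave differences from -1.15 without WT 4 to -0.52 without WT 2.

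**Figure D2:**
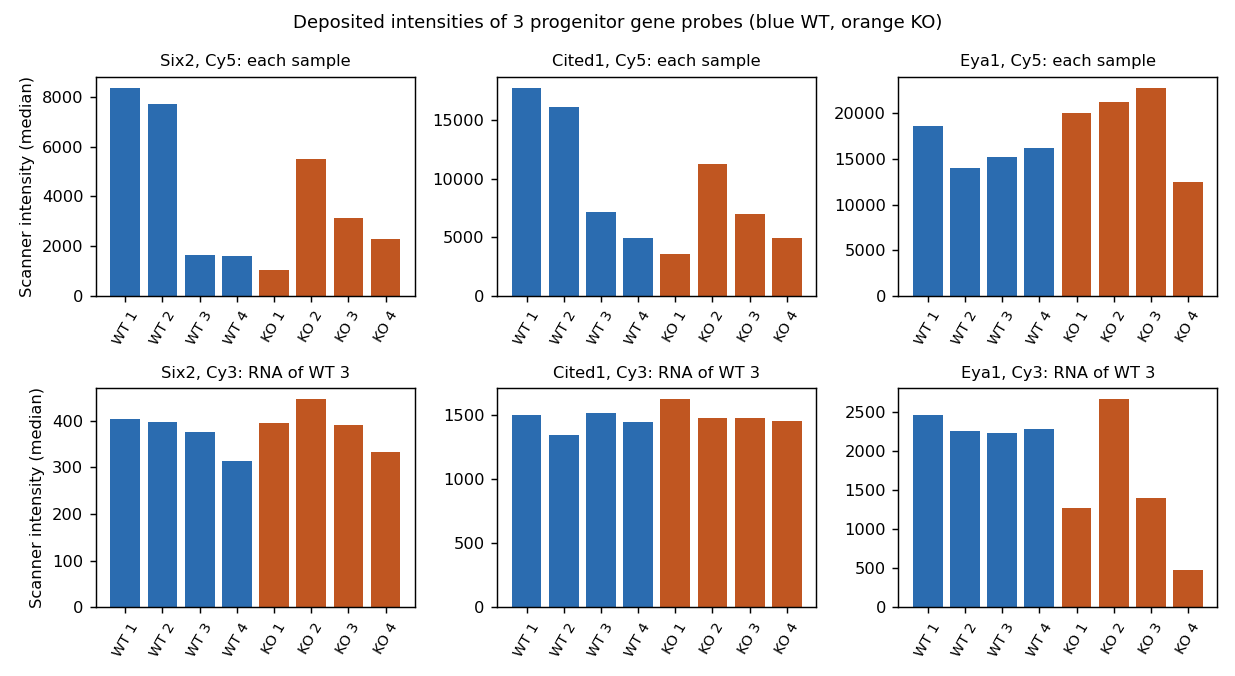
Deposited scanner intensities of the brightest probes of Six2, Cited1 and Eya1 on the 8 arrays, with the sample (Cy5) above and the reference RNA of WT 3 (Cy3) below, on linear axes from 0. Six2 and Cited1 differ in Cy5 and are level in Cy3, whereas Eya1 falls to 1272, 1395 and 479.5 in Cy3 on KO 1, KO 3 and KO 4.

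Eya1, a phosphatase and coactivator that works with Six2, went the other way in the ratio, and the difference lay in the reference channel. Its log2 ratios were 0.50, 0.56, 0.56 and 0.62 on WT 1 to WT 4 and 1.81, 0.59, 1.68 and 2.61 on KO 1 to KO 4, with the WT arrays within 0.12 of each other and KO 2 among them. The difference was 1.11 ± 0.34 (SE; limma adjusted p = 0.12), the only positive one among progenitor probes. In Cy5 the groups overlapped, with 14014 to 18648 on WT arrays and 12543 to 22842 on KO arrays. In Cy3, where every array carried the same RNA, Eya1 read 2230.5 to 2664 on the WT arrays and KO 2 but 1272, 1395 and 479.5 on KO 1, KO 3 and KO 4. From Cy5 alone its difference was 0.16 (limma adjusted p = 0.574). It was called without KO 2 at 1.47 (limma adjusted p = 0.00258), a value that rests on the 3 arrays with low Cy3.

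Meox1, a homeobox gene expressed in the cap, had log2 ratios of 0.33, 0.89, 0.10 and 0.11 on WT 1 to WT 4 and -0.56, 0.06, -0.14 and -0.69 on KO 1 to KO 4. Its 4 KO values lay below its 4 WT values, the only member probe of 33 with no overlap, where 11.8% of all probes had none, 7.73% lower and 4.02% higher in KO. The gap was narrow, 0.06 on KO 2 against 0.10 on WT 3, and the difference of -0.69 ± 0.21 (SE; limma adjusted p = 0.123) missed the threshold. It was called without KO 2 at -0.82 (limma adjusted p = 0.0239).

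Uncx, another homeobox gene of the progenitors, gave 0.57, 1.28, 0.78 and 0.10 on WT 1 to WT 4 and -0.29, 0.80, 0.27 and 0.0047 on KO 1 to KO 4, with WT 2, KO 2 and WT 3 highest and a difference of -0.49 ± 0.28 (SE; limma adjusted p = 0.308). Sall1, a zinc finger repressor that acts with Six2, read between -1.10 and -0.37 in WT, with -0.39 on the array of WT 3 itself, and between -0.90 and -0.70 in KO. Its difference was -0.15 ± 0.16 (SE; limma adjusted p = 0.588), and it did not follow the order of Six2. For Osr1, which marks the early nephrogenic mesenchyme, the highest values were 0.93 on WT 2, 0.86 on WT 1 and 0.86 on KO 2, with a difference of -0.17 ± 0.21 (SE; limma adjusted p = 0.666).

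Among progenitor signals, Gdnf, the ligand that bud cells read through Ret, had log2 ratios of 1.43, 1.61, -0.41 and 0.28 on WT 1 to WT 4 and -0.48, 1.27, 0.03 and 0.66 on KO 1 to KO 4. Its level therefore differed by 2.02 on the log2 scale among wild-type samples, while the difference between groups was -0.36 ± 0.49 (SE; limma adjusted p = 0.682). Single omissions moved that difference from -0.74 without WT 3 to -0.07 without WT 2, with -0.08 without KO 1 and -0.66 without KO 2. Crym, which encodes a thyroid hormone binding protein, gave 1.84, 2.19, 0.36 and 0.37 on WT 1 to WT 4 and -0.35, 1.31, 0.03 and 0.44 on KO 1 to KO 4, with a difference of -0.83 ± 0.48 (SE; limma adjusted p = 0.315). Rspo3, a secreted amplifier of Wnt signalling, was highest on WT 1, WT 2 and KO 2 at 0.65, 0.45 and 0.43, and lay between -0.46 and 0.06 elsewhere. Its difference was -0.22 ± 0.22 (SE; limma adjusted p = 0.575). All 3 genes had the order seen for Six2, high on WT 1, WT 2 and KO 2, and overlapped between groups.

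Counted over the list after this order had been seen, WT 1, WT 2 and KO 2 were the 3 highest arrays for 7 of 11 progenitor probes (63.6%). The same arrays were highest for 5 of 21 stroma probes with values on all arrays (23.8%), 0 of 17 ureteric bud probes and 2.62% of all such probes. WT 2 was the single highest array for 8 of 11 progenitor probes, and KO 1 the lowest for 7. Within the WT group, the SD of 10 of 11 progenitor probes lay above the 95th percentile of all tested probes, with a median SD of 0.49 against 0.11. The exception was Eya1. This was not particular to progenitor genes. It held for 6 of 7 endothelial probes (median SD 0.62), 5 of 6 proximal tubule probes (0.64) and 2 of 2 red cell probes (1.73). It also held for 7 of 19 ureteric bud probes (0.23), 3 of 8 macrophage probes (0.27) and 2 of 5 podocyte probes (0.30). Both Six2 probes read 1 transcript, and all probes share the same 8 samples, so these counts describe the samples and are not independent.

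**Figure D3:**
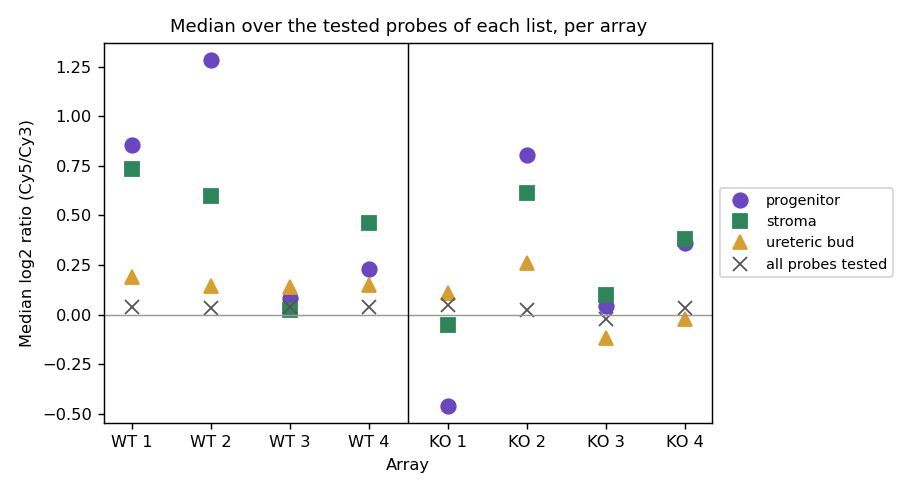
Median log2 ratio over the tested probes of the progenitor, stroma and ureteric bud lists and of all probes, 1 point per list and array. The progenitor median ranges from -0.46 on KO 1 to 1.28 on WT 2. The median of all probes, which normalisation within arrays sets near 0, ranges from -0.02 to 0.05.

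Stroma genes followed a related order with a smaller spread. The median log2 ratio of the 22 tested stroma probes was 0.73, 0.60, 0.02 and 0.46 on WT 1 to WT 4 and -0.05, 0.62, 0.10 and 0.38 on KO 1 to KO 4. WT 1, WT 2 and KO 2 were again highest, but WT 4 and KO 4 were nearer to them than in the progenitor list. The groups overlapped for each of the 22 probes, and 14 had a WT SD above the 95th percentile of all tested probes. Summed Cy5 intensity over all 24 stroma probes on the array was 138609 to 178381 on WT arrays and 134851 to 214935 on KO arrays. Most of this sum came from the brighter Sparc probe, with 107356 of 156453 on WT 1 and 90595.5 of 134851 on KO 4.

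Of the stroma transcription factors, Foxd1 (NM_008242) was barely detected. Its Cy5 intensity was 84 to 150 on WT arrays and 70 to 146 on KO arrays, well above background on 3 of 4 arrays in each group, and never so in Cy3. Its log2 ratios were 0.20, 0.30, 0.02 and 0.25 on WT 1 to WT 4 and -0.09, 0.10, -0.07 and 0.09 on KO 1 to KO 4, with a difference of -0.18 ± 0.09 (SE; limma adjusted p = 0.265). Tcf21, a basic helix-loop-helix factor of stroma and podocytes, gave 1.06, 1.39, 0.55 and 1.03 on WT 1 to WT 4 and 0.07, 1.57, 0.17 and 0.52 on KO 1 to KO 4. It was highest on KO 2 and lowest on KO 1, and the groups overlapped, with a difference of -0.42 ± 0.31 (SE; limma adjusted p = 0.432). Without KO 2 it was called at -0.75 (limma adjusted p = 0.0234).

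Meox2, a homeobox gene of mesenchyme, was highest on WT 2 and WT 1 at 0.89 and 0.85 and had a difference of -0.24 ± 0.25 (SE; limma adjusted p = 0.592). Its raw intensity on KO 3 was 1292.5 in Cy5 and 172 in Cy3, against 123 to 452.5 and 36.5 to 45.5 on the other arrays. Tbx18, which marks the mesenchyme of the ureter, was well above background only on KO 3, with Cy5 at 327.5 there against 61 to 76 elsewhere. No fold is given for it.

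The PDGF receptors mark most stromal cells. Pdgfrb had log2 ratios of 0.81, 1.17, 0.34 and 0.94 on WT 1 to WT 4 and -0.09, 1.32, 0.27 and 0.44 on KO 1 to KO 4, with KO 2 highest and KO 1 lowest and a difference of -0.33 ± 0.28 (SE; limma adjusted p = 0.504). Pdgfra, read by 10 spots of 1 probe, gave 0.62, 0.67, -0.08 and 0.44 on WT 1 to WT 4 and -0.05, 0.99, 0.20 and 0.42 on KO 1 to KO 4. The difference of Pdgfra was -0.02 ± 0.23 (SE; limma adjusted p = 0.965), and its sign turned without WT 1, WT 2, KO 1 or KO 3.

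Contractile genes include Acta2, the actin of smooth muscle. The 250 bases upstream of its start (GRCm38.p6, chr19:34255374-34255623, minus strand) are shown because serum response factor acts on CArG boxes in genes of this class. Capitals mark sites that match the CArG box with at most 1 mismatch.
Acta2: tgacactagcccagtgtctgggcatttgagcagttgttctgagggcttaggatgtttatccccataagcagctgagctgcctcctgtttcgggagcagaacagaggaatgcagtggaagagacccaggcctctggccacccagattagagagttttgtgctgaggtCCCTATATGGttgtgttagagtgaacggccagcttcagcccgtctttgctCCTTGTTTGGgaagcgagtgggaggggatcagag
There were 2 such sites, beginning 84 and 34 bases upstream, and 0 exact matches. Sites with at most 1 mismatch, a pattern that reads the same on both strands, occurred in 18.6% of all promoter windows.

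Acta2, read by 10 spots, had log2 ratios of 1.13, 1.00, 0.38 and 1.00 on WT 1 to WT 4 and -0.21, 1.21, -0.10 and 0.63 on KO 1 to KO 4. KO 2 was highest, followed by the wild-type arrays other than WT 3, while KO 1 and KO 3 were lowest. The difference was -0.49 ± 0.30 (SE; limma adjusted p = 0.342), and without KO 2 it was called at -0.77 (limma adjusted p = 0.0459). Tagln, an actin-binding protein of smooth muscle, gave 0.86, 0.48, -0.03 and 0.71 on WT 1 to WT 4 and -0.63, 0.62, -0.54 and 0.28 on KO 1 to KO 4, also with KO 1 and KO 3 lowest and a difference of -0.57 ± 0.29 (SE; limma adjusted p = 0.266).

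Cnn1, the smooth muscle calponin, was between -0.18 and 0.68 on WT arrays and between -0.06 and 0.28 on KO arrays, with a difference of -0.29 ± 0.17 (SE; limma adjusted p = 0.329). Myh11, the smooth muscle myosin heavy chain, had a difference of -0.19 ± 0.09 (SE; limma adjusted p = 0.242), with Cy5 at 109 to 149.5 on 7 arrays and 427 on KO 3. Des, the intermediate filament of muscle and mesangium, had values on 3 KO arrays only. On KO 3 its 10 spots were marked as outliers and left out, with a mean intensity of 2902.7 in Cy5 and 356.5 in Cy3, against 87.4 to 275.4 and 25.6 to 33.6 elsewhere. Its difference over the other 7 arrays was -0.13 ± 0.19 (SE; limma adjusted p = 0.716). All 5 contractile genes had a negative difference and none was called.

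Among matrix genes, the small proteoglycan gene Dcn had log2 ratios of 2.04, 0.92, 0.02 and 1.68 on WT 1 to WT 4 and 0.42, 1.48, 0.25 and 1.05 on KO 1 to KO 4. WT 1, WT 4 and KO 2 were highest, an order that differed from Six2 in WT 2 and WT 4, and the difference was -0.37 ± 0.42 (SE; limma adjusted p = 0.627). Mgp, an inhibitor of calcification, gave 0.87, 1.60, 0.32 and 0.49 on WT 1 to WT 4 and -0.99, 1.28, 0.10 and -0.03 on KO 1 to KO 4, with a difference of -0.73 ± 0.44 (SE; limma adjusted p = 0.334) and a call without KO 2 at -1.13 (limma adjusted p = 0.0441). Mmp2, a gelatinase of fibroblasts, gave 0.28, 0.83, 0.44 and 0.39 on WT 1 to WT 4 and -0.05, 0.62, -0.47 and -0.15 on KO 1 to KO 4. Its difference was -0.50 ± 0.21 (SE; limma adjusted p = 0.197), and without KO 2 it was called at -0.71 (limma adjusted p = 0.0123).

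Postn, an extracellular protein of activated stroma, gave 0.79, 0.36, 0.02 and 0.18 on WT 1 to WT 4 and -0.09, 0.17, 0.24 and 0.32 on KO 1 to KO 4. Its difference was -0.18 ± 0.16 (SE; limma adjusted p = 0.539). The 2 probes of Sparc, a collagen-binding matrix protein, had differences of 0.31 and -0.21, with limma adjusted p of 0.421 and 0.564. They disagreed most on KO 3, at 0.97 and -0.18. With median centring in place of loess the brighter one was at -0.53. Lum and Ogn, proteoglycans of the Dcn family, had differences of 0.02 and -0.13, and the sign of each turned under some settings. Dpt was well above background only on KO 3, and no fold is given for it.

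Of the secreted and surface genes, Penk, the enkephalin precursor, had log2 ratios of 1.24, 1.76, 0.06 and 1.10 on WT 1 to WT 4 and -0.0011, 1.87, -0.12 and 0.93 on KO 1 to KO 4, with KO 2, WT 2 and WT 1 highest and a difference of -0.37 ± 0.47 (SE; limma adjusted p = 0.658). Thy1, a surface glycoprotein of fibroblasts, was 1.22 on WT 4 and 1.17 on KO 2 and between 0.18 and 0.64 on the others, with a difference of -0.27 ± 0.25 (SE; limma adjusted p = 0.537). The chemokine gene Cxcl12 had a positive difference at both of its probes. Its brighter probe (NM_001012477) gave -0.54, -0.90, -0.15 and -0.19 on WT 1 to WT 4 and 0.04, -0.38, 0.49 and 0.42 on KO 1 to KO 4, lowest on WT 1, WT 2 and KO 2. The difference was 0.59 ± 0.22 (SE; limma adjusted p = 0.157), and 0.48 ± 0.19 (SE; limma adjusted p = 0.176) at the other probe. With median centring the brighter probe was at -0.05, and without KO 2 it was called at 0.76 (limma adjusted p = 0.0233).

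**Figure D4:**
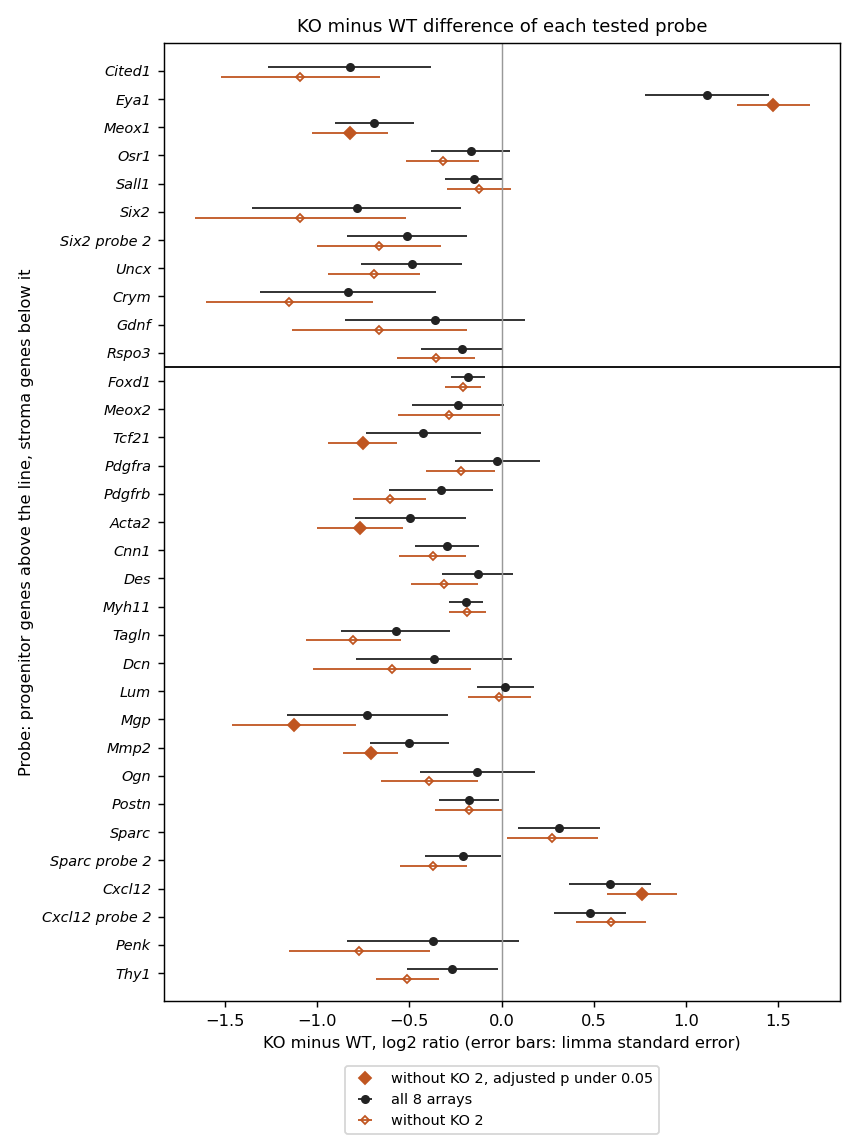
KO minus WT difference in log2 ratio for each tested probe, with limma standard errors, over all 8 arrays (black) and without KO 2 (orange, filled where the adjusted p was under 0.05). None of the 33 is called over all arrays. Without KO 2, 7 are filled, Eya1 and Cxcl12 to the right of 0 and 5 to the left.

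The calls depended on KO 2. Without it limma called 7 of 33 member probes, 2 higher and 5 lower (21.2%), and 6692 of all 31667 probes (21.1%), so the members' share was near the background. By direction, 9.71% of all probes were called higher and 11.4% lower. Those 7 were Eya1, Meox1, Tcf21, Acta2, Mgp, Mmp2 and the brighter probe of Cxcl12. Six2, Cited1, Gdnf and Crym were not among them. Without KO 2 and KO 3 it called 5 of 33 (15.2%), Eya1, Meox1, Mgp, Mmp2 and the other Cxcl12 probe, against 23.5% of all probes, 13.2% higher and 10.3% lower. The 2 list medians without KO 2 were -0.66 and -0.37. Every single-array omission left both medians negative, from -0.74 to -0.29 for progenitors and from -0.37 to -0.15 for stroma.

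Over all 8 arrays, wider lists of the same cells also held no called gene, where only 2 of all 31667 probes (0.00632%) were called. As for the members, the number of calls depended on KO 2. Without KO 2 limma called 3 higher and 6 lower of 35 further progenitor probes, 1 and 5 of 48 further stroma probes, and 1 and 7 of 23 further contractile and pericyte probes, beside 21.1% of all probes. Of 26 further progenitor and early nephron genes, 25 were tested by 35 probes, with a median difference of -0.29, 25 below 0 and 0 called. By array the list median was 0.13, 0.43, 0.05 and 0.03 on WT 1 to WT 4 and -0.07, 0.12, -0.01 and 0.07 on KO 1 to KO 4. The 4 with the smallest p were Robo2, a receptor for Slit ligands (-1.08 ± 0.19, SE, over 7 arrays with no value on KO 2; limma adjusted p = 0.0985), Dapl1, a progenitor marker (-0.63 ± 0.12, SE; limma adjusted p = 0.0985), Hmga2, a chromatin protein of fetal cells (-0.43 ± 0.12, SE), and Lhx1, a factor of nephron precursors and bud (-0.38 ± 0.13, SE). Groups did not overlap for 5 of the 35 probes, all lower in KO, beside 7.73% of all probes.

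All 38 further stroma genes were tested, by 48 probes, of which 40 were below 0 with a median of -0.21 and 0 called. Their list median was 0.43 on KO 2 and between -0.05 and 0.05 on the other KO arrays, and between 0.11 and 0.37 on WT arrays. Eln (elastin), Gli3 and Twist1 (transcription factors) and Dchs1 (a cadherin) had the smallest p, with differences of -0.47 ± 0.13, -0.32 ± 0.11, -0.37 ± 0.13 and -0.46 ± 0.17 (SE). Of 16 further contractile and pericyte genes 15 were tested, by 23 probes, of which 14 were below 0 (60.9%, against 54.4% of all probes) with a median of -0.08 and 0 called. Actg2, an actin of visceral smooth muscle, had -0.60 ± 0.16, and Cspg4, a pericyte proteoglycan, -0.52 ± 0.19 (SE). Abcc9, a channel subunit of pericytes, had -0.45 ± 0.19, and Mcam, an adhesion molecule, 0.88 ± 0.29 (SE), with low Cy3 on the same 3 arrays as Eya1. WT 1, WT 2 and KO 2 were the 3 highest arrays for 24.2%, 27.9% and 20% of the probes of these 3 lists with values on all arrays.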

How the data were processed

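The authors deposited scanner output with the median intensity of each spot and of its local background in both channels, but no mean signals. The submitters' processing notes name Agilent Feature Extraction 10.7.3.1, and the array annotation is for mm9, per the file headers. A log10 ratio (Cy5 over Cy3), background-subtracted and dye-normalised by that software, is also deposited, per the file headers, and the deposited series value table holds the same log10 ratios (largest difference 0.00496, r of at least 0.999999). These served as alternatives.

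Intensities were corrected with normexp (offset 50) and normalised by loess within arrays in limma 3.58.1 (R 4.3.3). Spots flagged by the scanner software (non-uniform, or outlying among their copies) were dropped, and spots of a probe averaged. Testing a probe required Cy5 well above background on 4 or more of 8 arrays and unflagged values on 3 or more per group. KO and WT were compared with lmFit and eBayes, 2-sided, without a block. Of 37850 systematic names, 21717 matched the RefSeq table of GRCm38.p6 once versions were removed. Promoters came from RefSeq (GRCm38.p6). Figures were drawn with matplotlib 3.10.9.

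Members, lists and alternatives were chosen with earlier results of these data known. All members may be named. Per-array values are given for a fixed set of 12 genes and up to 3 further members per role with the smallest p, and from each wider list the 4 genes with the smallest p. The number of arrays limits the precision.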

Additional observations from a re-analysis of the deposited data

Results flagged for a closer look

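For 2 member probes 1 array lay far from the other 3 of its group, by the gap to its nearest neighbour over the group's range (Dixon's test), and both times it was KO 2. Thy1 was at 1.17 on KO 2 and between 0.18 and 0.21 on the other KO arrays. The dimmer Sparc probe was at 0.45 on KO 2 and between -0.22 and -0.18 on the others. Such gaps arise by chance in about 1 of 20 groups, and 70 groups of 4 values were examined.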

How the results depend on the processing

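Over 23 alternatives both list medians stayed below 0, and 719 of 752 values of single member probes kept their direction and side of the threshold. Another 14 became calls, and 19, in 5 probes, changed sign without a call. The median difference of all probes was -0.28 with median centring and -0.19 with Cy5 alone, against -0.02, and the stroma median was then -0.54 and -0.55. The stroma median was also lower than -0.22 with a normexp offset of 0 (-0.43), the scanner ratio (-0.46) and the series table (-0.46). There the median of all probes was -0.04, -0.05 and -0.05. The progenitor median ranged from -0.89 to -0.29. All probes called numbered 1 with a normexp offset of 0, without background subtraction or with the mean over probes of a gene, and 5 with the scanner ratio or the series table. They numbered 0 with median centring or Cy5 alone, 6 with scaling between arrays, 4 without the filter, 13 with trend and robust fitting, 5087 with array weights and 7436 without KO 2 and KO 3. Array weights called 16.1% of all probes. Among the wider lists they called 1 higher and 5 lower of 35 progenitor probes, 0 and 3 of 48 stroma probes, and 1 and 1 of 23 contractile probes. Of the 19 ureteric bud probes they called 1 higher and 4 lower. Of 33 member probes, 2 were called with array weights (Eya1 and Meox1, 6.06%). Without KO 2 and KO 3, 5 were called (15.2%, against 23.5% of all probes). Leaving out 1 array gave 1 to 6692 calls overall and 0 to 7 among members, highest without KO 2, and 8 overall without KO 3. Why these counts moved was not tested. With the replicate number as a block 0 probes were called, and the list medians were -0.49 and -0.23. Samples with the same number correlated at -0.21, 0.05, 0.11 and -0.01 in their deviations, and those with different numbers at -0.19 to 0.14. The sample titles give only a number, and these correlations cannot decide whether samples were matched.

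Lum changed sign without background subtraction (-0.0086), with the scanner ratio (-0.39), median centring (-0.29), the series table (-0.39), Cy5 alone (-0.40), scaling (-0.0459), array weights (-0.0117), without KO 2 and KO 3 (-0.0053), and over single omissions (-0.0721 to 0.18). Over single omissions Pdgfra ranged from -0.22 to 0.12 and Ogn from -0.39 to 0.0868. Median centring turned the brighter probes of Sparc (-0.53) and Cxcl12 (-0.0521). Low signal limits Foxd1, Myh11, Des, Postn and Lum, which were above background in Cy3 on at most 2 arrays. The Foxd1 probe had no value with the filter on all 8 arrays.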

Other observations

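In Cy3, where 1 RNA lay on all arrays, 58 of 31667 tested probes (0.183%) read at least 1.5-fold lower on each of KO 1, KO 3 and KO 4 than on any other array, a criterion chosen after Eya1 had been seen. Eya1 was the only member probe among them. Their log2 ratios were higher in KO, with a median difference of 1.23, which the choice largely fixes because Cy3 is the ratio's denominator. Mcam, from the pericyte list, read 859, 968.5 and 342 in Cy3 on KO 1, KO 3 and KO 4 against 1421 to 1691 on the other arrays, and 6942 to 13065.5 in Cy5 over all arrays.

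The array of WT 3 against itself gave a median absolute log2 ratio of 0.13 over the 33 member probes and 0.15 over all tested probes.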
